A study of Rattus norvegicus with 36 samples.

Results

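Oxidative phosphorylation is the mitochondrial process that burns fuel with oxygen to make ATP. Complex I takes electrons from NADH, complex III passes them to cytochrome c, complex IV hands them to oxygen, and the ATP synthase (complex V) uses the proton gradient built on the way. The heart depends on this chain for nearly all of its contractile energy, and endurance training is known to raise mitochondrial content in skeletal muscle. Most subunits are encoded in the nucleus, and several of complex IV come as a ubiquitous and a heart and muscle isoform.

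The mRNAs of this chain were measured in whole hearts of male Wistar Kyoto rats, 1 array per rat. Members were the probes whose only gene symbol starts with Nduf, Uqcr, Atp5 or Cox followed by a digit from 4 to 8, or is Cyc1 or Cycs, and that were detected (a detection score of 0.95 or more) on at least 7 of 36 arrays. The rule found 66 probes of 66 genes, of which 63 were detected, out of 10956 detected probes among 22523. The probes of Ndufs4 and Cox8c were detected on 0 arrays and that of Ndufb4 on 2, and they were left out. No probe carried the symbol Cyc1. By complex the members were 28 subunits of complex I, 7 complex I assembly factors (Ndufaf1 to Ndufaf7), 4 subunits of complex III, the probe of cytochrome c (Cycs), 10 of complex IV and 13 of complex V. Complex II, which has no member under the rule, is given as a separate list below.

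All rats were Control offspring of sham-operated mothers with normal litter size. Sedentary rats were killed at 9 weeks (n = 7) or 24 weeks of age (n = 7). Early exercise rats ran on a treadmill from 5 to 9 weeks of age and were killed at 9 weeks (n = 7) or, after 15 further weeks without training, at 24 weeks (n = 8). Later exercise rats ran from 20 to 24 weeks and were killed at 24 weeks (n = 7). Where rats were killed at the end of a training period, this followed a rest of some days from the last bout. Males of 1 litter went to different groups, and the litter of each rat is not given in the labels, so p-values measure the spread between rats that may share a litter.

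The tissue label was checked against 9 detected cardiomyocyte markers (among them Myh6, Myh7, Tnnt2, Tnni3 and Mybpc3), and each was detected on all 36 arrays. Arrays of later exercise rats were dim. Their mean raw intensity was between 315 and 709, with a median of 578, and that of sedentary rats of the same age between 715 and 1307, with a median of 897, so that the groups did not overlap. A length score (the mean log2 level of 14 probes of very long transcripts minus that of 56 cytosolic ribosomal protein probes) was lower after training at both ages. It ran from -3.97 to -3.40 in sedentary and from -4.21 to -3.84 in early exercise rats at 9 weeks. At 24 weeks it ran from -3.99 to -3.33 in sedentary, -4.19 to -3.86 in early exercise and -4.74 to -3.86 in later exercise rats. Because both measures differed between later exercise and sedentary rats, the members' calls in that comparison are also given from fits that hold brightness or the length score as a covariate. Brightness did not overlap between these groups, so a fit that holds it can separate it from training only in part. What a call lost there reflects was not tested. The labels number 3 chips of 12 arrays, and every chip held all 5 groups. The study's methods describe beadchips with fewer arrays, so what a chip of the labels stands for is uncertain. Within-chip values are given beside the members' calls.

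**Figure D1:**
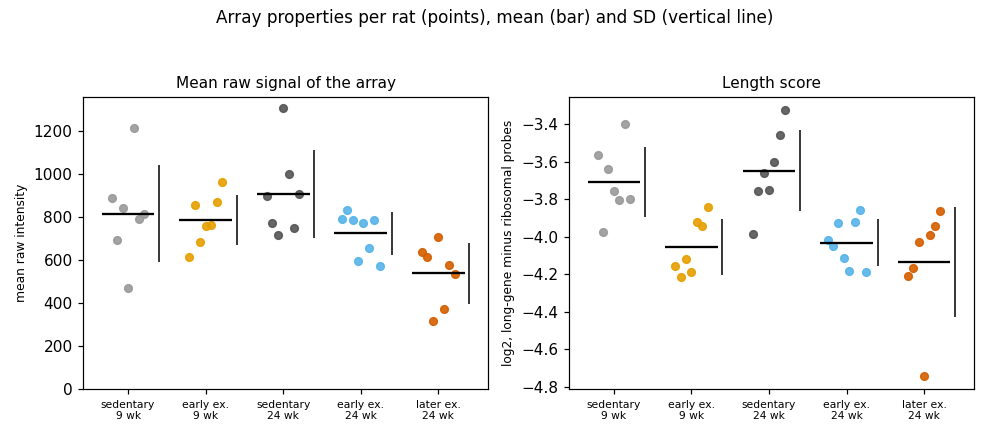
Mean raw intensity of each array (left, linear axis from 0) and its length score (right, log2) for each rat, by group, with the mean as a bar and the SD as a vertical line. Later exercise rats lie between 315 and 709 in raw intensity, below all sedentary rats of 24 weeks, and trained rats have lower mean length scores than sedentary rats of their age.

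Members were mostly bright probes, and their levels were steady from rat to rat. Of the 63 members 61 were detected on every array, the exceptions being Atp5mc3 (25 arrays) and Ndufs6-ps1 (34 arrays). The mean normalized intensity was above 14 on the log2 scale for 35 members, while no probe of any kind exceeded 15.19, so that the brightest members had little room above them. The highest raw signal of any probe was 46005. The within-group SD had a median of 0.15 over the members and 0.20 over all detected probes. It was lowest for Ndufs8 (0.085), an iron-sulfur subunit of complex I, and highest for Atp5mk (0.58), a small subunit of the ATP synthase. Chip means differed by more than 0.3 for 11 members, most of all for Atp5mk (0.99) and Cox6c (0.71), both highest on chip 1. Ndufs6-ps1 is annotated as a pseudogene and Ndufa10l1 has Ndufa10 among its synonyms in RefSeq, so the transcripts behind these 3 probes are uncertain.

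Whether training from 5 to 9 weeks changed the chain at its end was asked at 9 weeks of age. No member passed an adjusted p of 0.05 by limma in early exercise against sedentary rats, and neither did any of the 10956 probes (0%). At an unadjusted p under 0.05 there were 3 members, 1 higher and 2 lower, which is 4.76% of the members against 7.92% of all probes (4.63% higher and 3.29% lower). No member's groups were free of overlap, against 11 of all probes in the higher and 9 (0.0821%) in the lower direction. The median log2 difference was 0.024 over the members and 5.6e-05 over all probes. Complex IV had a median of 0.091 with 8 of 10 members above 0, complex V 0.039 with 9 of 13, complex I -0.0016 with 13 of 28, and complex III -0.048 with 1 of 4.

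The smallest p at 9 weeks belonged to Ndufs1, the largest iron-sulfur subunit of complex I. In sedentary rats its level ran from 13.75 to 14.26 (median 13.86), and after early exercise it ran from 13.49 to 13.79 (median 13.64). The ranges overlapped narrowly, with the sedentary rats higher on average, and the log2 difference was -0.28 ± 0.089 (SE, adjusted p = 0.466). Cox7a2l, which helps join complexes III and IV into supercomplexes, was at 12.32 to 12.49 (median 12.45) in sedentary rats. After early exercise it was at 12.49 to 12.70 (median 12.64). The groups met at the top of the sedentary range, and the difference was 0.19 ± 0.080 (adjusted p = 0.563). Uqcrc1, a core protein of complex III, differed by -0.16 ± 0.074 (adjusted p = 0.596). With the length score as a covariate Ndufs1, Cox7a2l and Uqcrc1 were at -0.11, 0.095 and -0.069. The other probes of the naming rule, Ndufb6 and Ndufa8 above 0 and Ndufv1 below it, had unadjusted p above 0.05.

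Whether early training left a trace 15 weeks later was asked by comparing early exercise with sedentary rats at 24 weeks. Again no member and none of all probes passed (0%, limma). At an unadjusted p under 0.05 there were 2 members higher and 4 lower, or 9.52% of the members against 10.4% of all probes (4.42% higher and 5.98% lower). Again all members' groups overlapped, against 0.0365% of probes without overlap in the higher and 0.110% in the lower direction. The median was 0.036 over the members. Complex V had a median of 0.094. Its 9 probes of the membrane part and stalk (Fo) all lay above 0, where 48.8% of all probes did. They ran from 0.022 for Atp5pf to 0.20 for Atp5mk, the member with the largest within-group SD, with a median of 0.096. None of these 9 passed, the smallest adjusted p among them being 0.512 for Atp5mc2, which encodes the c subunit of the rotor ring. Complex IV had a median of 0.052, complex III 0.059 and complex I -0.012.

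The smallest p in that comparison belonged to Ndufb6 among the members. This gene, an accessory subunit of the membrane arm, was at 12.89 to 13.39 (median 13.09) in sedentary rats and, after early exercise, at 13.30 to 13.46 (median 13.34). The early exercise rats formed a narrow band near the top of the sedentary range, and the difference was 0.22 ± 0.070 (adjusted p = 0.238). Uqcrc1 was at 14.03 to 14.67 (median 14.18) in sedentary rats and, after early exercise, at 13.94 to 14.15 (median 14.08), overlapping at the low end of the sedentary range (-0.21 ± 0.071, adjusted p = 0.256). Ndufa10l1 (-0.16 ± 0.058, adjusted p = 0.289) and Ndufa10 (-0.19 ± 0.082, adjusted p = 0.393) were lower and Cox7a2l (0.21 ± 0.078, adjusted p = 0.295) higher in early exercise rats, and none of them passed. With the length score as a covariate Ndufb6 was at 0.10, Uqcrc1 at -0.11, Ndufa10l1 at -0.081, Ndufa10 at -0.074 and Cox7a2l at 0.11.

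Training from 20 to 24 weeks was compared with sedentary rats of the same age, which are the same 7 controls as for early exercise at 24 weeks. Here 4 of 63 members passed an adjusted p of 0.05. Cox4i1, Ndufb6 and Ndufaf2 were higher and Ndufa10l1 was lower in later exercise rats. The share called was 6.35% of the members, below the 12.4% called among all probes (4.59% higher and 7.79% lower). Taken over both directions, the members therefore held no excess of calls. At an unadjusted p under 0.05 there were 14 members higher and 5 lower, or 30.2% against 26.2% of all probes (10.9% higher and 15.4% lower). The balance differed: most of these members were higher, while more of all probes were lower than higher. No member's groups were free of overlap, against 0.338% of probes in the higher and 1.10% in the lower direction. The median was 0.044 over the members and -0.0089 over all probes.

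**Figure D2:**
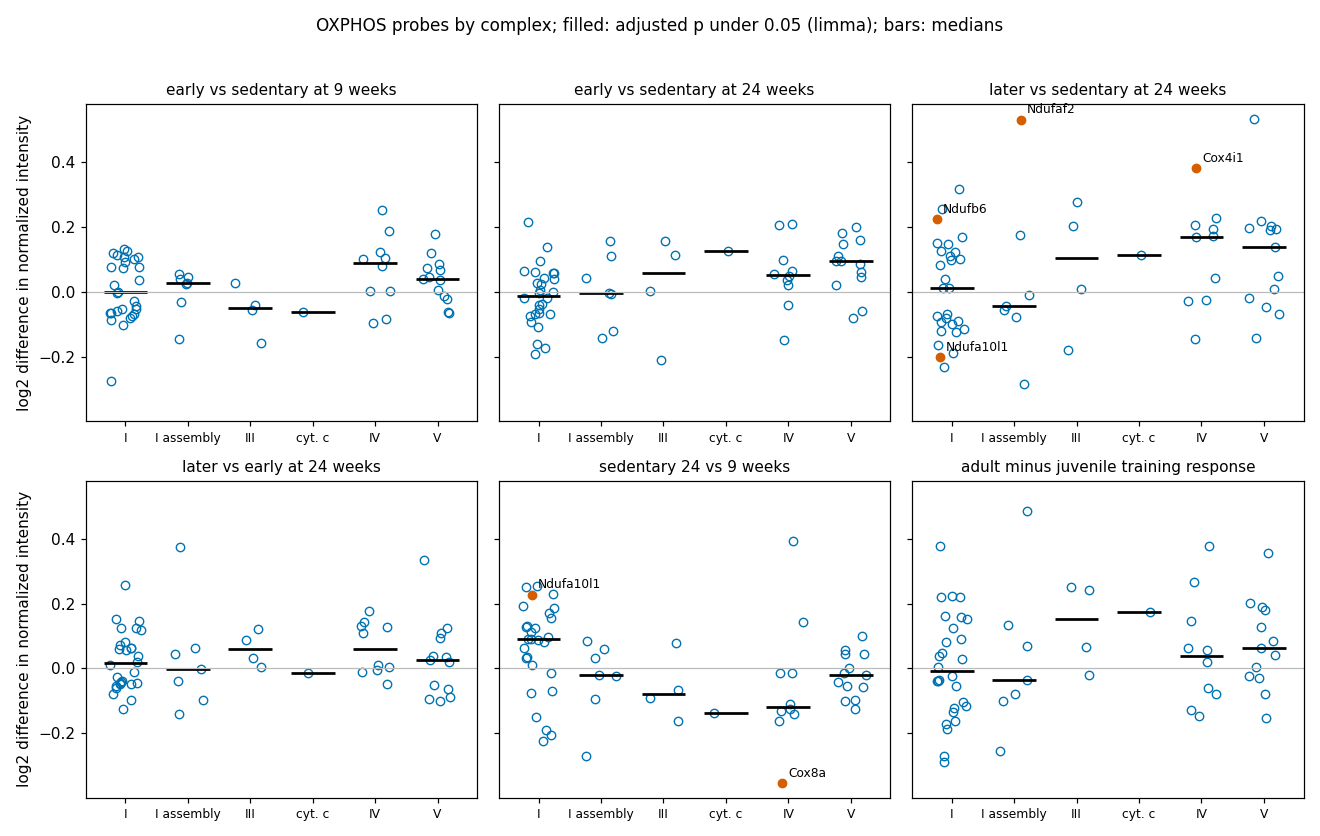
Log2 difference in normalized intensity of each member (circles) by complex, in 5 comparisons of groups and in the difference between the training responses of adult and juvenile rats. Filled circles passed an adjusted p of 0.05 (limma over 10956 probes), bars are medians, and the medians of complexes IV and V in later exercise against sedentary rats lie at 0.17 and 0.14.

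By complex, the medians in later exercise against sedentary rats were 0.17 for complex IV (7 of 10 members above 0), 0.14 for complex V (9 of 13), 0.11 for complex III (3 of 4), 0.011 for complex I (15 of 28) and -0.043 for the assembly factors (2 of 7). With chip as a block complexes IV and V were at 0.12 and 0.12, and after scaling all arrays to one median, which moved the median of all probes to -0.28, they were 0.41 and 0.37 above that value. With the length score as a covariate they were at 0.024 and 0.050, and with array brightness as a covariate at 0.17 and 0.033. Within chips 1, 2 and 3 complex IV had medians of 0.21, 0.072 and -0.038, and complex V of 0.18, 0.036 and 0.10. Within complex I the membrane arm (15 probes) was at 0.084, the NADH-oxidizing module (6 probes) at -0.071 and the quinone-binding module (6 probes) at -0.11.

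Cox4i1 encodes the ubiquitous isoform of subunit 4, the largest nuclear-encoded subunit of complex IV. Its level ran from 14.12 to 14.60 (median 14.24) in sedentary rats of 24 weeks, from 14.22 to 14.84 (median 14.52) in early exercise and from 14.48 to 14.98 (median 14.70) in later exercise rats. Of 7 later exercise rats 6 lay above every sedentary rat, and 1 fell within the sedentary range. The difference between later exercise and sedentary rats was 0.38 ± 0.11 (SE, 1.30-fold, adjusted p = 0.0210). It was 0.36, 0.20 and 0.58 within chips 1, 2 and 3, and 0.36 ± 0.11 with chip as a block (adjusted p = 0.0194). With array brightness as a covariate the difference was 0.15 (adjusted p = 0.562), and with the length score 0.25 (adjusted p = 0.311). The part of either measure in the result was not tested. Without sedentary rat 5 the difference was 0.35 (adjusted p = 0.0556), and it passed in the other 13 fits that left out 1 rat. Without later exercise rats 3 and 5 together it was 0.38 (adjusted p = 0.0563). At 9 weeks the means were 14.49 ± 0.23 in sedentary and 14.49 ± 0.27 in early exercise rats (SD, n = 7 each).

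The 250 bases before the RefSeq start of Cox4i1 (rat build GRCr8, chr19:65630133-65630382, plus strand) are shown because this gene carries the largest called change among the subunits. The window was searched on both strands for the site of the nuclear respiratory factor NRF-1, of GABP, also called NRF-2 (CCGGAAG), of the estrogen-related receptors (TCAAGGTCA) and of YY1 (AAGATGGCG), whose matches would be in capitals, and held none.
Cox4i1: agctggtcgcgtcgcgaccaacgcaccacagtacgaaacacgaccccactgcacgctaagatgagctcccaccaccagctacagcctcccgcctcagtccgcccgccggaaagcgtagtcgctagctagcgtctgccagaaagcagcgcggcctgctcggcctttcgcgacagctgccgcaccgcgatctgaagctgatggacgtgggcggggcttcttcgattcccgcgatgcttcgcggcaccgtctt
A promoter was found for 54 of the 63 members by gene ID. The GABP letters were in 14 of them (25.9%), against 15.4% of 6578 detected genes and 8.11% of all 27457 genes with such a window. The NRF-1 motif, a palindrome, was in 6 members (11.1%), against 1.67% of detected and 0.870% of all genes. The receptor letters were in 1 member (Atp5mc3, 1.85%), against 0.167% of detected and 0.397% of all genes. The YY1 letters were also in 1 (Atp5pf), against 1.32% and 0.768%. These are matches of letters and not sites shown to be bound.

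Ndufb6 differed between later exercise and sedentary rats by 0.23 ± 0.072 (1.17-fold, adjusted p = 0.0349). Its level ran from 13.09 to 13.66 (median 13.32) in later exercise rats and from 12.89 to 13.39 (median 13.09) in sedentary rats. The ranges overlapped widely, and 2 later exercise rats lay above every sedentary rat. Within chips the difference was 0.28, 0.22 and 0.23. It was -0.026 with arrays scaled to a common median, 0.20 with brightness (adjusted p = 0.244) and 0.083 with the length score as a covariate (adjusted p = 0.617), and it lost its call without sedentary rat 1, 4, 5, 6 or 7 or later exercise rat 1 or 4 (adjusted p up to 0.104). It also did not pass with only the groups compared (adjusted p = 0.189) or without later exercise rats 3 and 5 (adjusted p = 0.0514).

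Ndufaf2, an assembly factor that acts late in the building of complex I, had the largest called difference, 0.53 ± 0.18 (1.45-fold, adjusted p = 0.0479). Its level ran from 8.65 to 10.11 (median 9.29) in later exercise and from 8.23 to 9.35 (median 8.71) in sedentary rats, and the groups overlapped over most of the sedentary range. Of 7 later exercise rats 2 lay above all sedentary rats. The difference was 0.50, 0.53 and 0.27 within chips. It was 0.036 after scaling to one median (adjusted p = 0.927), 0.040 with the length score as a covariate (adjusted p = 0.934) and 0.77 with brightness (adjusted p = 0.0733). It passed under 6 of 12 other settings. Besides these 3, it did not pass without the detection filter, with only the groups compared or without moderation. It passed in 4 of 14 fits that left out 1 rat, those without sedentary rat 1 or 4 or later exercise rat 3 or 7 (adjusted p up to 0.156 in the others).

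Ndufa10l1, an accessory subunit of the membrane arm of complex I, fell by 0.20 ± 0.060 on the log2 scale (0.869-fold, adjusted p = 0.0229). Its level ran from 13.57 to 13.83 (median 13.72) in sedentary and from 13.38 to 13.68 (median 13.49) in later exercise rats. The groups overlapped, with 4 of 7 later exercise rats below every sedentary rat. Within chips the difference was -0.18, -0.12 and -0.25. With brightness it was -0.24 (adjusted p = 0.0922) and with the length score -0.10 (adjusted p = 0.437). It lost its call without sedentary rat 6 or 7 or later exercise rat 4 (adjusted p up to 0.0606), and with only the groups compared (adjusted p = 0.129). The Ndufa10 probe, whose transcript may be shared, differed by -0.23 ± 0.085 and did not pass (adjusted p = 0.0695).

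**Figure D3:**
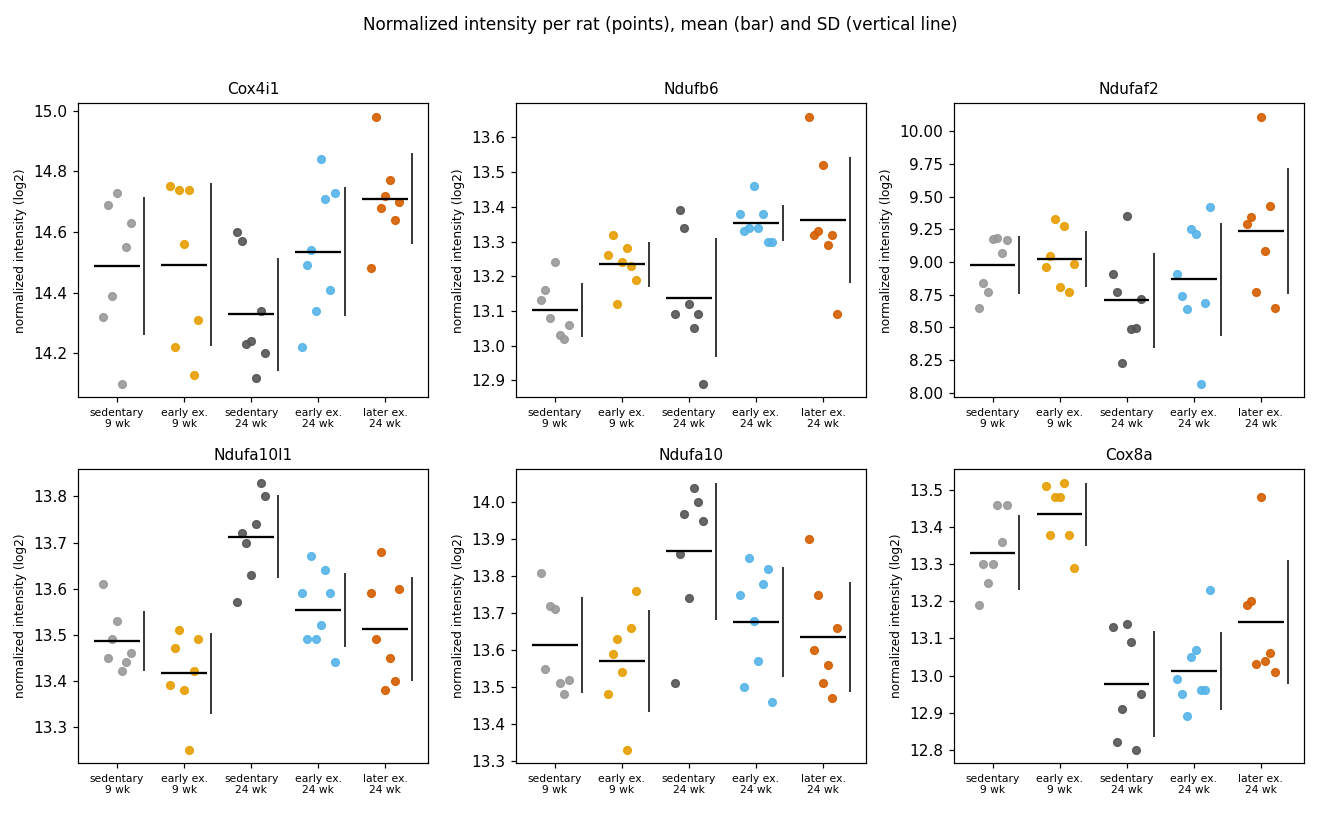
Normalized intensity (log2) of 6 members in each rat by group, with the mean as a bar and the SD as a vertical line. Of 7 later exercise rats 6 lie above all sedentary rats of 24 weeks for Cox4i1, and Cox8a in the sedentary rats of 24 weeks lies wholly below that of 9 weeks.

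With chip as a block, 12 of 63 members passed, 9 higher and 3 lower, a share close to the 17.2% of all probes (7.17% higher and 10.1% lower). Besides the 4 above, the higher ones were the ATP synthase subunits Atp5f1b (0.24 ± 0.087), the catalytic beta subunit, and the c subunits Atp5mc1 (0.23 ± 0.080) and Atp5mc2 (0.23 ± 0.066), and on the complex I side Ndufb9 (0.30 ± 0.10), Ndufs8 (0.16 ± 0.057) and the assembly factor Ndufaf3 (0.22 ± 0.063). Their adjusted p ran from 0.0133 for Atp5mc2 to 0.0496 for Atp5f1b. The lower ones were Ndufa10 (-0.19 ± 0.063, adjusted p = 0.0323) and the assembly factor Ndufaf7 (-0.31 ± 0.11, adjusted p = 0.0381). Without the block these 8 had adjusted p between 0.0695 and 0.256.

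The remaining parts of complexes III and IV did not pass in later exercise against sedentary rats. Uqcrb, a small subunit of complex III, differed by 0.28 (adjusted p = 0.211) and Uqcrh by 0.20 (adjusted p = 0.199), whereas Uqcrc1 was at -0.18 (adjusted p = 0.107) and Uqcrfs1, the Rieske iron-sulfur protein, at 0.0083. Cycs, the mobile electron carrier, was at 14.30 to 15.03 (median 14.95) in sedentary rats and, after later exercise, at 14.79 to 15.06 (median 14.98). The later exercise rats lay within the upper part of the sedentary range apart from a slightly higher top, and the difference was 0.11 (adjusted p = 0.460). Cox7a2l differed by 0.21 ± 0.080 (adjusted p = 0.0845), and Cox6a2 and Cox8a by 0.23 ± 0.11 and 0.17 ± 0.073 (adjusted p = 0.164 and 0.131).

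Later and early exercise rats were compared directly at 24 weeks. No member passed by limma, against 0.438% of all probes (0.0639% higher and 0.374% lower), and 5 members had an unadjusted p under 0.05, all higher in later exercise rats (7.94% against 12.2% of all probes, 4.55% higher and 7.69% lower). All members' groups overlapped, against 0.00913% of probes without overlap in the higher and 0.0821% in the lower direction. They were the complex I subunits Ndufs7 (0.15 ± 0.064), Ndufs8 (0.13 ± 0.057), Ndufv3 (0.26 ± 0.12) and Ndufb7 (0.15 ± 0.071) and the assembly factor Ndufaf2 (0.37 ± 0.18), with adjusted p from 0.344 to 0.385. The 3 named below 0, Ndufa5, Atp5mg and Ndufaf7, had unadjusted p above 0.05.

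The response to 4 weeks of training in adult rats was set against that in juvenile rats, each relative to sedentary rats of its age. No member differed by limma, against 0.146% of all probes (0.0183% higher and 0.128% lower), and 4 members higher and 1 lower had an unadjusted p under 0.05 (7.94% against 13.1% of all probes, 4.80% higher and 8.32% lower). For Cox4i1 the adult minus the juvenile response was 0.38 ± 0.16 (adjusted p = 0.306), so the called change in adult rats was not shown to differ from that in juvenile rats. The others were Ndufs7 (0.22 ± 0.093), Ndufv3 (0.38 ± 0.17), Ndufb7 (0.22 ± 0.10) and, below 0, Ndufa5 (-0.27 ± 0.11), with adjusted p from 0.308 to 0.348.

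Age was compared in sedentary rats of 24 and 9 weeks, the former being the controls of both training comparisons at 24 weeks. Of 63 members 2 passed, Cox8a lower and Ndufa10l1 higher in the older rats. This is 3.17% of the members against 6.56% of all probes (3.48% higher and 3.09% lower), and 4 members, or 6.35% against 9.55%, passed with chip as a block. At an unadjusted p under 0.05 there were 5 members higher and 2 lower, or 11.1% against 19.4% of all probes (10.1% higher and 9.29% lower). The medians were 0.090 for complex I, with 21 of 28 members above 0, and -0.12 for complex IV, with 8 of 10 below 0. Complex III was at -0.079, complex V at -0.020 and all probes at 0.0048. Scaling the arrays to one median gave complex I a median of -0.0022, or 0.033 above that of all probes, and complex IV was at -0.23.

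Cox8a encodes the ubiquitous isoform of the smallest subunit of complex IV. Its level ran from 13.19 to 13.46 (median 13.30) in sedentary rats of 9 weeks and from 12.80 to 13.14 (median 12.95) in those of 24 weeks. The groups did not overlap, which held for no other member and for 1.04% of all probes in the lower and 1.20% in the higher direction. The difference was -0.35 ± 0.073 (0.782-fold, adjusted p = 0.00161), and within chips it was -0.33, -0.40 and -0.31. It was -0.37 with brightness (adjusted p = 0.000912) and -0.33 with the length score (adjusted p = 0.000376) as a covariate, and it passed without any 1 of the 14 rats. After scaling to one median it was -0.38 and did not pass (adjusted p = 0.128). Early exercise rats showed the same order, at 13.29 to 13.52 (median 13.48) at 9 weeks and 12.89 to 13.23 (median 12.98) at 24 weeks, which was not tested.

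The 250 bases before the start of Cox8a (GRCr8, chr1:213833624-213833873, minus strand) are shown because this gene has the smallest adjusted p among the members. Capitals mark the letters of the GABP motif, here as the reverse complement CTTCCGG, which occurred 2 times.
Cox8a: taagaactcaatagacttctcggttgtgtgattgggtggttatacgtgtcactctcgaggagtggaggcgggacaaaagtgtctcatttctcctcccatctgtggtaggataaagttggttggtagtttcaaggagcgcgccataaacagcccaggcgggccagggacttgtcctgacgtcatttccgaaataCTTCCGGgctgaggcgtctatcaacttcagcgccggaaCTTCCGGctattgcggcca
No measurement here bears on binding at either window.

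Ndufa10l1 ran from 13.42 to 13.61 (median 13.46) at 9 weeks and from 13.57 to 13.83 (median 13.72) at 24 weeks in sedentary rats. All but 1 rat of 24 weeks lay above the 9-week range. The difference was 0.23 ± 0.060 (1.17-fold, adjusted p = 0.0142), with 0.16, 0.21 and 0.33 within chips. Ndufa10 differed by 0.25 ± 0.085 (adjusted p = 0.0647, and 0.00738 with chip as a block), and Ndufs5, a subunit of the membrane arm, by 0.23 ± 0.10 (adjusted p = 0.196, and 0.0317 with the block). Ndufa5 (0.19 ± 0.081) was also above 0 and Ndufs1 (-0.21 ± 0.089) below it, and neither passed (adjusted p = 0.165 and 0.177). The other member of the naming rule, Ndufv3, had an unadjusted p above 0.05.

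Cell type markers moved with age, so that a whole-heart change in a member cannot be told apart from a change in the share of cells: fewer cells of a type and less RNA per cell look alike. Of all probes 3.09% fell and 3.48% rose between 9 and 24 weeks. Of 7 detected fibroblast markers 5 fell and 0 rose, among them Col1a1 by 2.14 on the log2 scale. Their summed level was 15.62 to 16.09 at 9 weeks and 15.19 to 15.68 at 24 weeks. Of 3 erythroid markers 2 fell, and of 2 atrial markers Nppa rose (0.67). The summed level of the 9 cardiomyocyte markers was 17.26 to 17.51 at 9 weeks and 17.15 to 17.57 at 24 weeks, with Actc1 higher (0.43). In later exercise rats it was 17.42 to 17.68, with Ckm (0.33) and Myh7 (0.36) higher than in sedentary rats. Of the other lists in later exercise against sedentary rats, 2 of 6 macrophage and 1 of 3 adipocyte markers rose and 0 fell, 7 of the 14 very long transcripts fell, and 4 of 56 cytosolic ribosomal proteins rose. In that comparison 4.59% of all probes rose and 7.79% fell. Of 7 fibroblast markers Col3a1 passed (0.53), while 5 lay below 0, the median was -0.21 and the summed level was 15.01 to 15.33 (median 15.21), overlapping the lower end of the 15.19 to 15.68 of sedentary rats. After scaling to one median 0 of these 7 were higher and 4 lower, where 4586 of all 10956 probes were called lower. With brightness or the length score as a covariate no marker of cardiomyocytes, macrophages, fibroblasts or adipocytes and no cytosolic ribosomal protein passed, and the very long transcripts, which enter the score, had 2 and 1 lower. The part of these markers in the members' differences was not tested.

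Isoform pairs of complex IV were followed as log2 ratios of the 2 probes within each array. Cox6a2 and Cox8b are the heart and muscle isoforms, and Cox6a1 and Cox8a the ubiquitous ones. The log2 ratio of Cox6a2 to Cox6a1 ran from -0.59 to 0.51 (median 0.33) in sedentary rats of 24 weeks and from 0.39 to 0.77 (median 0.57) in later exercise rats. The later exercise rats lay in and above the upper part of the sedentary range, and the ratio was higher by 0.37 (two-sided exact permutation p = 0.0175, 0.175 adjusted over 10 tests). Within chips the ratio differed by 0.54, -0.035 and 0.68.

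The log2 ratio of Cox8b to Cox8a ran from 1.19 to 2.01 (median 1.70) in sedentary rats of 9 weeks and from 1.18 to 2.37 (median 2.23) in those of 24 weeks. The ranges had the same floor and the older rats a higher top, and the ratio was higher by 0.34 (exact permutation p = 0.104, 0.522 adjusted). Cox8b was the brightest probe of its array in 2 of 7 rats of 9 weeks and 3 of 7 of 24 weeks, where quantile normalization fixes its value at the top, so its level and this ratio are capped. After scaling to one median the ratio differed by 0.18 with age, and in later exercise against sedentary rats by 0.43 instead of -0.12. The other 8 tests of the 2 ratios had an exact p of 0.186 or more, and no ratio passed after adjustment.

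**Figure D4:**
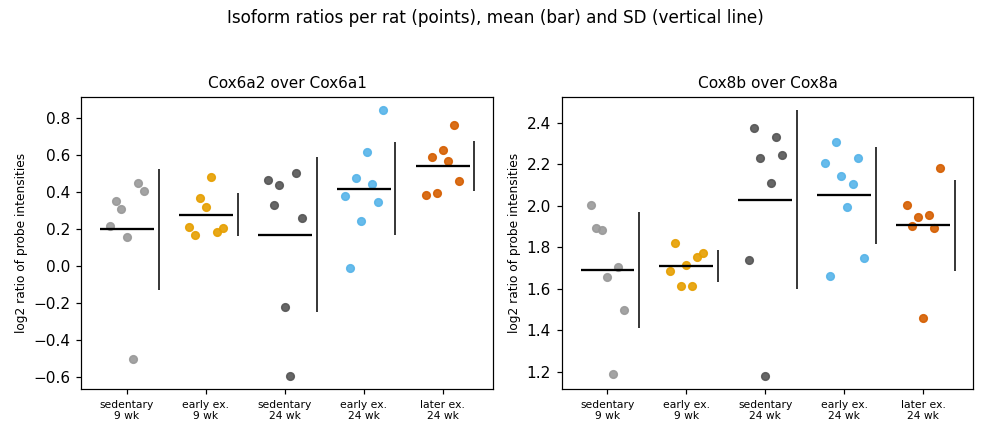
Log2 ratio of the heart and muscle isoform probe to the ubiquitous isoform probe of complex IV subunits 6a (left) and 8 (right) in each rat by group, with the mean as a bar and the SD as a vertical line. The mean ratio of Cox6a2 to Cox6a1 is 0.54 in later exercise and 0.17 in sedentary rats of 24 weeks, with overlapping points.

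Genes that build, regulate and neighbour the chain were read from further lists. In later exercise against sedentary rats 4 of 12 transcriptional regulators of mitochondrial genes fell and 0 rose, against 7.79% of all probes lower. Ppargc1a, the coactivator known as PGC-1alpha, was at 6.87 to 7.47 (median 7.05) in sedentary rats and, after later exercise, at 5.68 to 6.67 (median 6.43), without overlap (-0.87 ± 0.19, adjusted p = 0.00226). Its relative Ppargc1b was at 6.07 to 6.62 (median 6.26) and 5.40 to 6.10 (median 5.55), overlapping only at the edge (-0.67 ± 0.095, adjusted p = 3.49e-05). These levels are low: the median over all probes of an array was 5.71, above the median of Ppargc1b in later exercise rats. Perm1, a muscle regulator downstream of PGC-1, and Esrrg, an estrogen-related receptor, fell by 0.31 and 0.50 (adjusted p = 0.0130 and 0.0351). Without background correction the differences of the dim probes were smaller, -0.49 for Ppargc1a, -0.48 for Ppargc1b and -0.28 for Esrrg. They still passed (limma, adjusted p = 0.00338, 1.99e-05 and 0.0374). With the length score as a covariate Ppargc1b kept an adjusted p of 0.000107, while Ppargc1a (0.115), Perm1 (0.447) and Esrrg (0.723) did not pass, and with brightness only Ppargc1b did (0.0250). Ppargc1b was also lower in later than in early exercise rats (-0.41 ± 0.092, adjusted p = 0.0290), but not with brightness as a covariate (-0.32, adjusted p = 0.244).

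Of 13 assembly factors of complexes III and IV 4 rose and 0 fell in later exercise against sedentary rats, where 4.59% of all probes rose, namely Coa5 (0.60), Coa7 (0.37), Coa3 (0.35) and Cox17 (0.34), the copper chaperone of complex IV. Coa5 was at 7.54 to 8.27 (median 7.94) in sedentary rats and, after later exercise, at 8.22 to 8.82 (median 8.38), overlapping at the edge (adjusted p = 0.000975). It was 0.10 (adjusted p = 0.546) after scaling to one median and 0.36 (adjusted p = 0.157) with brightness. Of 57 mitochondrial ribosomal protein probes 9 rose and 0 fell, with a median of 0.13. The rises in both lists depended on the scaling. With one median for all arrays 4586 of all 10956 probes were called lower, and the counts at that scaling are to be read beside this share. Of the 12 regulators above 10 fell and 0 rose there, with a median of -0.33 relative to all probes. At that scaling 0 assembly factors rose and 6 fell, and 0 mitochondrial ribosomal proteins rose and 19 fell. Their medians were -0.081 and -0.014 relative to all probes. With brightness as a covariate none passed in either list, and with the length score 1 and 2 rose. The complex V assembly factor Fmc1 rose by 0.59 (adjusted p = 0.0349), 1 of 4 in its list, of which 0 rose and 2 fell after scaling to one median. It was 0.60 with brightness (adjusted p = 0.171) and 0.015 with the length score (adjusted p = 0.974), and neither passed. None of 6 complex I assembly genes outside the rule passed (median -0.025), and all 6 fell after that scaling (-0.17 relative to all probes).

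Of 6 genes of complex II and its assembly, Sdhb, the iron-sulfur subunit, fell by 0.27 in later exercise rats (adjusted p = 0.0284), and it was -0.12 and -0.14 with brightness and the length score (adjusted p = 0.538 and 0.440) and -0.025 after scaling to one median. Of 8 carriers and translocation genes Slc25a4, the heart isoform of the ADP/ATP carrier, rose by 0.37 (adjusted p = 0.0417, 0.773 with brightness and 0.285 with the length score as a covariate), while the median of its list was -0.16. With chip as a block 1 of these 8 rose and 3 fell, against 7.17% of all probes higher and 10.1% lower. With age Slc25a5, the other ADP/ATP carrier, fell by 0.45 (adjusted p = 0.00207), from 13.50 to 13.90 (median 13.68) at 9 weeks to 13.03 to 13.42 (median 13.25) at 24 weeks, without overlap. Of the mitochondrial ribosomal proteins 3 rose with age and 0 fell, led by Mrps26 (0.54), against 3.48% of all probes higher.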

How the data were processed

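Total RNA of 36 whole hearts was hybridized to Illumina rat expression beadchips. The deposited signal intensity is the scanner summary without normalization, and the deposited detection score runs up with it, so 0.95 or more was read as detected. The log2 values deposited by the authors were used as given. They differ by at most 0.0417 from normexp background correction with an offset of 16, quantile normalization and log2, and the submitters' processing notes name R 3.2.2 and limma 3.24.15. The paper's methods describe a variance-stabilizing transformation in lumi and an analysis of variance in Partek, which were not repeated here. No depth exists for arrays, and their number limits the precision.

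Of 22523 probes 13793 carry 1 symbol and 8730 none. All 66 gene IDs of the rule matched RefSeq (GRCr8) with unchanged symbols. A linear model of 5 group means was fitted with limma 3.58.1 in R 4.3.3 to the 10956 detected probes of all 36 arrays. Variances were moderated by empirical Bayes, and p-values were adjusted by Benjamini-Hochberg over these probes. It was tested on simulated data. Members, lists and rules were chosen with earlier results of these data known. Named members were up to 8 each way by size at an adjusted p under 0.05 or, with fewer than 3, the 3 each way with the smallest p, and complex IV isoforms and Cycs. The isoform probes not named in a comparison differed by between -0.16 and 0.21 over the 6 comparisons and had unadjusted p above 0.05. Isoform ratios were tested by exact permutation of 3432 or 6435 groupings. Alternatives were other background correction and scaling, other detection filters, chip, replicate number, brightness or length score in the model, only the groups compared, no moderation, and leaving out arrays. Replicate numbers were not used as pairs. The median correlation of deviations between groups was 0.048 for same-numbered rats and 0.0087 for other numbers. Chip was left in these deviations (0.21 within a chip), so the check cannot exclude pairing.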

Additional observations from a re-analysis of the deposited data

Results flagged for a closer look

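Among 22 named members in 5 groups (110 checks), 7 had a single rat far from the rest of its group by Dixon's test at the 95% level, where chance flags about 1 in 20. At 24 weeks, Cox8a was highest in later exercise rat 4 (13.48, the next at 13.20), which also had the lowest length score of all arrays (-4.74), and Cox7a2l was lowest in later exercise rat 7 (12.21, the next at 12.47). Among early exercise rats of 24 weeks, Cox7a2l was highest in rat 4 (12.72, the next at 12.53), Ndufs7 was highest in rat 8 (13.44, the next at 13.27) and Cox8b was lowest in rat 2 (14.61, the next at 14.98). Cox8b was also lowest in sedentary rat 4 of 24 weeks (14.32, the next at 14.86), and Cox6a2 was lowest in sedentary rat 5 of 9 weeks (14.27, the next at 14.68). Causes were not tested.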

How the results depend on the processing

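The 2 age calls were the most stable: Cox8a and Ndufa10l1 passed under 10 of 11 settings each and in all 14 fits without 1 rat. For later exercise against sedentary rats, where 4 members passed, the count was 17 after scaling to one array median (8 higher and 9 lower, with 4586 of 4624 called probes lower), 12 with chip as a block, 1 with only the groups compared, 0 with array brightness or with the length score as a covariate, and 2 without later exercise rats 3 and 5. It ran from 1 to 8 when 1 rat was left out: 1 without sedentary rat 5, 6 or 7 or later exercise rat 4, and 8 without later exercise rat 7. Its median was -0.0023 with the length score and 0.096 without rats 3 and 5. For age the count was 0 with arrays scaled to a common median and 4 with chip as a block or with the length score. Among these settings, calls over all probes are given only for the chip block and, in later exercise, for the scaling to one median. A change in the other counts is therefore not read as particular to the members. Scaling to a common median gave 2 calls in later against early exercise and 8 in the adult minus juvenile response, all lower. The calls over all probes in these comparisons are likewise not given, so these calls are not read as particular to the members either. The scaling moved the members' median to 0.18 and 0.12 in early exercise against sedentary rats at 9 and 24 weeks, -0.0725 in later against early exercise, -0.11 with age and -0.19 in the adult minus juvenile response. The same scaling turned the sign of Uqcrc1 (0.041) and Ndufv1 (0.067) at 9 weeks, Ndufb6 (-0.026), Cox8a (-0.10) and Cox7a2l (-0.14) in later exercise against sedentary rats, Ndufs7 (-0.062) and Ndufs8 (-0.037) in later against early exercise, Ndufa5 with age (-0.032) and Ndufs7 in the adult minus juvenile response (-0.17). Ndufaf7 in later against early exercise turned to 0.00013 with brightness and 0.0016 without rats 3 and 5, and Cox8a in later exercise against sedentary rats to -0.030 with the length score. Of 426 values of single members under these settings 392 kept direction and side of the threshold, but most of the values were of members that were not called. Of 12 settings the calls of later exercise passed under 9 for Cox4i1, 7 for Ndufb6, 6 for Ndufaf2 and 9 for Ndufa10l1. The block on replicate number left the counts at 4 for later exercise, 2 for age and 0 elsewhere, and 8 of 36 arrays matched their own number best. The causes of these shifts were not tested.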
